A study of Mus musculus with 61 samples.

Results

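The Zfp genes of the mouse are named for the zinc finger, and 361 of the 45037 probe sets analysed here report on them. A member was any probe set annotated to exactly 1 gene whose symbol is Zfp followed by digits and at most 1 letter, with a mean signal above 50 over all 61 arrays. Of 612 probe sets that named 1 such gene (329 genes), 361 passed the limit and covered 248 genes (of 18193 genes that the array names by single-gene probe sets), 251 did not, and 81 genes had no member. The members were set against all 23765 probe sets above the same limit. Each array held RNA of 1 brain region or the pituitary gland of untreated wild-type male mice aged 8 weeks from 1 of 6 inbred strains (FVB/NJ, DBA/2J, C57BL/6J, C3H/HeJ, A/J and 129S6/SvEvTac), and no group carried a transgene or targeted allele. The regions were the pituitary gland, periaqueductal gray (pag), hypothalamus, hippocampus and the bed nucleus of the stria terminalis (bnst), a limbic nucleus of the forebrain. Each of the 30 groups had 2 arrays, except C3H/HeJ bnst with 3, and an array held tissue of a single mouse or of up to 5 mice pooled, with pools of 5 for the pituitary gland.

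A zinc finger is a short fold of the protein chain held together by a zinc ion, and proteins with rows of such fingers usually bind DNA. Many Zfp proteins also carry a KRAB domain, which recruits Trim28 and, through it, Setdb1 and HP1 proteins, and so lays down repressive chromatin, above all over transposable elements. The KRAB genes sit in tandem clusters that have expanded and differ between mammalian lineages and between mouse strains. The symbol Zfp also covers genes of other kinds, among them Zfp36, which encodes the RNA-binding protein tristetraprolin, and Zfp207, which encodes a spindle assembly factor.

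Signals were scaled by the authors to a common level, and array means lay between 180 and 201, with array medians between 42.6 and 67.1. Correlations between replicate arrays over all probe sets lay between 0.974 and 0.998, with a median of 0.993. Markers were checked against the region labels. All 6 pituitary markers measured, 5 of 5 hippocampus markers, 4 of 4 hypothalamus markers, 3 of 3 periaqueductal gray markers and 4 of 4 bnst markers were higher in the region they mark than in the mean of the other 4. The 4 hypothalamus markers were also higher in bnst, where their summed mean signal was 7478, against 14310 in hypothalamus and 261 in hippocampus.

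The members were expressed at modest levels. Their mean signals lay between 50.2 and 1061, with a median of 118, against a median of 171 over all probe sets above the limit. Just inside the limit were Zfp94 at 50.2, Zfp804a (1457361_at) at 50.6 and Zfp110 at 51.1, and just outside it were Zfp729b at 49.7, Zfp697 at 49.6 and Zfp768 at 49.2. The 5 members with the highest mean signal were Zfp622 (1061), whose yeast counterpart acts in ribosome assembly, Zfp106 (947), an RNA-binding protein needed for motor neuron upkeep in mice, Zfp445 (908), which protects imprinted regions together with Zfp57, Zfp207 (791) and Zfp365 (739), whose human counterpart binds DISC1. Zfp622 and Zfp445 varied little, with region means between 828 and 1238 for Zfp622 and between 790 and 1015 for Zfp445. Zfp365 varied most of these 5, with a mean of 1517 ± 205 in hippocampus (SD, n = 12), 961 ± 108 in bnst (SD, n = 13) and 99.4 ± 16.6 in pituitary gland (SD, n = 12).

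Region separated the members more often than strain. The study's own form of test regressed the unlogged signals on both factors and their interaction. A probe set was then region-specific at a region p under 0.01 unless its strain p was smaller, and strain-specific in the reverse case. By this rule 280 members (77.6%) were region-specific, against 83.3% of all probe sets above 50, and 56 members (15.5%) were strain-specific, against 10.3%. The other 25 members were neither. In limma, fitted to log2 signals with p-values adjusted over 44065 probe sets and an adjusted p of 0.05 as threshold, 328 members (90.9%) differed between regions, against 93.6% of all probe sets above 50, and 226 members (62.6%) differed between strains, against 57.2%. The width of the differences showed the same order. The highest and lowest region means of a member were apart by a median of 0.64 on the log2 scale and by more than 2-fold in 82 members (22.7%), against 39.9% of all probe sets above 50. The highest and lowest strain means were apart by a median of 0.36, and by more than 2-fold in 25 members (6.93%), against 5.66%.

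The pituitary gland stood highest. It had the highest region mean for 200 of the 361 members, a count that was not made over all probe sets above 50. In the pituitary gland 205 members (56.8%) were higher than in the mean of the other 4 regions, against 46.2% of all probe sets above 50. A further 68 (18.8%) were lower, against 38.6%. The median member difference of the pituitary gland was 0.27 on the log2 scale, against 0.09 over all probe sets above 50. With each array scaled to 1 median signal, 169 members (46.8%) were higher, against 37.0% of all probe sets above 50, and 96 (26.6%) were lower, against 43.8%. The median difference was then 0.13 for members and -0.05 over all probe sets above 50, so that both medians moved down by about the same amount. All 5 neuron markers, 5 oligodendrocyte markers, 5 astrocyte markers and 5 microglia markers were lower in the pituitary gland, and the part of cell composition in the member differences was not tested. In tissue RNA, fewer cells of a type and less RNA per cell cannot be told apart.

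**Figure D1:**
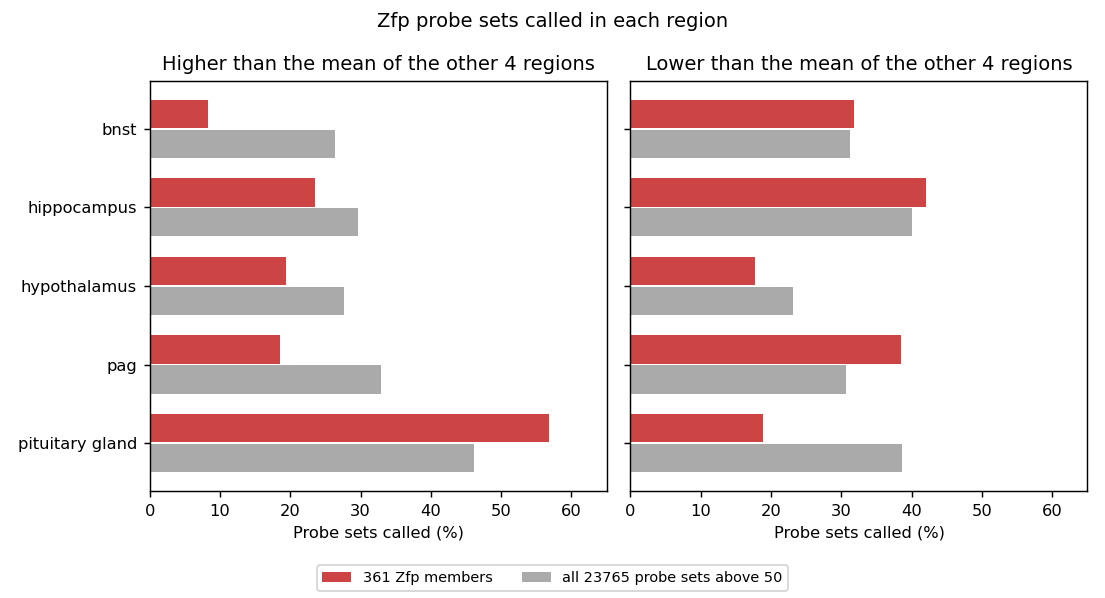
Share of probe sets called higher (left) or lower (right) in each region than in the mean of the other 4, in percent, for the 361 Zfp members (red) and for all 23765 probe sets above a mean signal of 50 (gray). The pituitary gland called 56.8% of the members higher, and bnst called 8.31% higher.

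The other 4 regions had fewer members above the mean of the rest than below it or about as many. In bnst 30 members (8.31%) were higher, against 26.4% of all probe sets above 50, and 115 (31.9%) were lower, against 31.2%. In hippocampus 85 (23.5%) were higher, against 29.7%, and 152 (42.1%) were lower, against 40.0%. In hypothalamus 70 (19.4%) were higher, against 27.7%, and 64 (17.7%) were lower, against 23.1%. In periaqueductal gray 67 (18.6%) were higher, against 32.9%, and 139 (38.5%) were lower, against 30.6%. The hippocampus was the lowest region for 126 members, and bnst was the highest region for 10, counts that were not made over all probe sets above 50. The splits moved with the scaling of the arrays, and with each array scaled to 1 median 36 members were higher and 50 lower in bnst, where 29.4% and 19.02% of all probe sets above 50 were. In hippocampus they were 100 and 103 (34.2% and 28.8% of all), in hypothalamus 68 and 41 (26.2% and 17.1%), and in periaqueductal gray 43 and 151 (26.7% and 32.0%).

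The mean of the other 4 regions holds the pituitary gland, so each brain region was also set against the mean of the other 3 brain regions, a comparison added after the data had been seen. By it 27 members were higher and 37 lower in bnst (13.3% and 15.8% of all probe sets above 50), and 91 were higher and 107 lower in hippocampus (26.5% and 35.7%). In hypothalamus 93 were higher and 38 lower (26.3% and 20.2%), and in periaqueductal gray 67 were higher and 86 lower (28.7% and 22.8%). The median member differences then lay between -0.04 in hippocampus and 0.06 in hypothalamus.

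**Figure D2:**
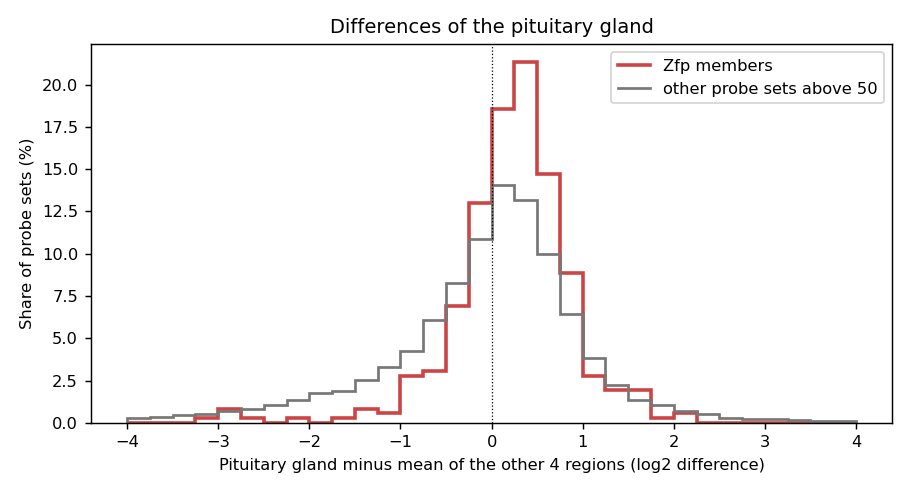
Distribution of the log2 difference between the pituitary gland and the mean of the other 4 regions, as a share of probe sets in percent per bin, for Zfp members (red) and for the other probe sets above a mean signal of 50 (gray). The member curve is centred to the right of 0, with a median of 0.27, and has a thinner tail on the left.

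The members with the widest pituitary difference fell rather than rose there. Zfp365 (1433583_at) had a lowest, median and highest signal of 75.9, 98.7 and 123 on the 12 pituitary arrays, against 365, 820 and 1805 on the 49 other arrays. No pituitary array reached the lowest array of any other region. The log2 difference was -3.04 ± 0.052 (SE, limma adjusted p = 6.42e-34). Zfp385b (1436731_at), a zinc finger gene whose family has been linked to p53, had 7.31, 17.6 and 41.7 in the pituitary gland, against 61.6, 147 and 296 elsewhere. Its log2 difference was -2.87 ± 0.093 (SE, adjusted p = 2.09e-25). The other member probe set of Zfp385b, 1457704_at, is not described here. Zfp804a (1443036_at), whose human counterpart carries a well-known association with schizophrenia, had 5.25, 15.7 and 33.2 in the pituitary gland, against 36.8, 119 and 298 elsewhere. Its groups also lay apart, and the log2 difference was -2.83 ± 0.12 (SE, adjusted p = 4.65e-22). Part of the pituitary signals of Zfp385b and Zfp804a lay under 12.78, the level to which low values were raised before taking logs, so their differences are understated.

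Among the members higher in the pituitary gland, Zfp516 (1437921_x_at), a transcription factor of brown fat, led with 420, 453 and 500 (lowest, median and highest of 12 arrays), against 55.1, 106 and 137 on the other 49 arrays. Every pituitary array lay above every other array, and the log2 difference was 2.13 ± 0.078 (SE, adjusted p = 8.92e-24). This probe set carries the ending x, for probes that can match other transcripts. The other member probe set of Zfp516, 1455944_at, was not among the leading members and is not described here. Zfp36, whose product binds AU-rich elements of messenger RNAs and speeds their decay, had 202.5, 256 and 350.0 in the pituitary gland, against 31.1, 61.4 and 92.2 elsewhere. These groups were again apart, by 2.11 ± 0.095 (SE, adjusted p = 4.76e-21). Zfp395, first described as a factor that binds the promoter of the Huntington's disease gene, had 214, 281 and 478 in the pituitary gland, against 15.8, 92.1 and 164 elsewhere. The 2 DBA/2J pituitary arrays, at 478 and 451, were the highest of all, and the log2 difference was 1.94 ± 0.10 (SE, adjusted p = 3.95e-19). The 6 members are shown array by array in the plot of the largest pituitary differences.

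**Figure D3:**
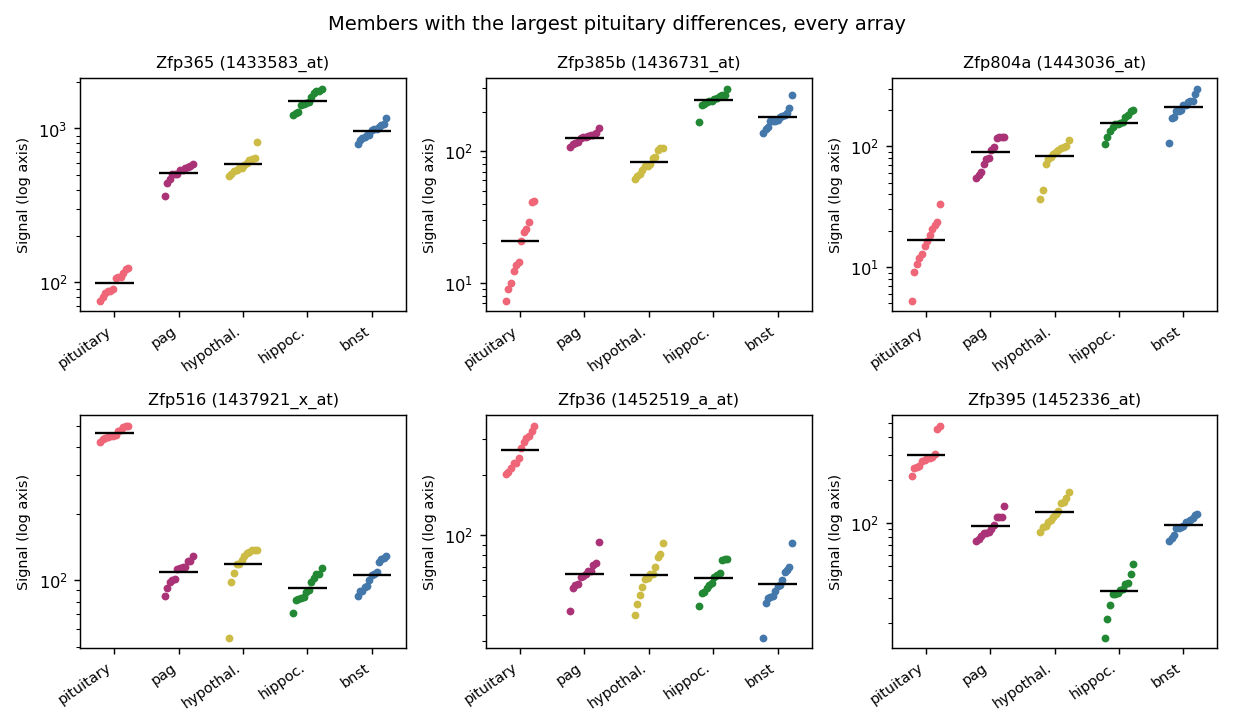
Signal on every array (log axis) by region for the 3 members furthest below (top) and the 3 furthest above (bottom) the other regions in the pituitary gland, with points for arrays, set out in order of signal, and a line for the mean of each region. Pituitary arrays of Zfp365 lie between 75.9 and 123, under all other arrays, and those of Zfp516 between 420 and 500, over all others.

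The start regions of Zfp365, Zfp804a and Zfp36 are given, and each had 1 start listed. Zfp365 and Zfp804a were among the leading members downward in the pituitary gland, and Zfp36 was among those upward. Zfp385b and Zfp516, which differed more than Zfp804a and Zfp36 in the same directions, are not printed. The printed windows are RefSeq sequences of build GRCm38.p6 that run from 250 bases before to 50 bases after the start, on the strand of the gene. Capitals mark every match, on either strand, to the GC box GGGCGG, the TATA box TATAAA, the cAMP response core TGACG or the CArG box of serum response factor. Zfp365 lies at chr10:67912613-67912912 (minus strand), Zfp804a at chr2:82053408-82053707 (plus strand) and Zfp36 at chr7:28379179-28379478 (minus strand).
Zfp365: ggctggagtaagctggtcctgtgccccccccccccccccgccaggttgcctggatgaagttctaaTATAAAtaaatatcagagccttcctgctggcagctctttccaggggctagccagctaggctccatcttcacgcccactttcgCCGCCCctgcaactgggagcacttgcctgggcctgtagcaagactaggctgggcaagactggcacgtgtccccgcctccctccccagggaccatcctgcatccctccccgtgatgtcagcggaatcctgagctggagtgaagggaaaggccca
Zfp804a: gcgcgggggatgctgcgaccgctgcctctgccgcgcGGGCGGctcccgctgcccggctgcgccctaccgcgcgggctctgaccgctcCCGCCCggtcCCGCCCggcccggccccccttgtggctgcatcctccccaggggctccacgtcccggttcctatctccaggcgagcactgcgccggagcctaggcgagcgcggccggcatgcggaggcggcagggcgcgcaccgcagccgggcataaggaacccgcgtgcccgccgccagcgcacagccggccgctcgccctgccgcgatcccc
Zfp36: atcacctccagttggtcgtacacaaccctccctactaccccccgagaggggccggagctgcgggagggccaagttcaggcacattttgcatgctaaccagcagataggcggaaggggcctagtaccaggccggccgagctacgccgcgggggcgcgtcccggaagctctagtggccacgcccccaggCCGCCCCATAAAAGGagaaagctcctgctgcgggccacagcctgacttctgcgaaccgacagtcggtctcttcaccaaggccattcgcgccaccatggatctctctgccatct
The Zfp365 window held 1 GC box and 1 TATA box, the Zfp804a window held 3 GC boxes, and the Zfp36 window held 1 GC box and 1 CArG box, which share a base. A GC box was present in 35.7% of all 32851 windows in the table, a TATA box in 13.6%, a cAMP response core in 20.8% and a CArG box in 1.63%. Among 240 windows of 201 member genes the shares were 50.4% for the GC box, 7.08% for the TATA box, 35.4% for the cAMP response core and 2.08% for the CArG box. The member windows were richer in G and C, with a median of 57% against 52.7% over all windows, and held a median of 16.5 CG pairs against 7. The full set of windows covered 27025 genes and was not limited to genes with a signal above 50. The sets thus differ in more than the Zfp symbol, and these shares are not a trait of Zfp genes. The matches are letters in a window and were not tested as binding sites.

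In hippocampus the same Zfp365 was the leading member in the upward direction. Its probe set 1435615_at had 237, 353 and 462 on 12 hippocampal arrays, against 9.22, 98.5 and 270 elsewhere, and probe set 1433583_at had 1223, 1476 and 1805, against 75.9, 551 and 1174. The log2 differences were 2.11 ± 0.086 (SE, adjusted p = 1.19e-21) and 1.88 ± 0.052 (SE, adjusted p = 1.31e-26), so that both probe sets of Zfp365 ranked hippocampus first and pituitary gland last. Zfp385b (1436731_at) followed at 1.65 ± 0.093, with a mean of 245 ± 32.0 (SD, n = 12) in hippocampus and 104 ± 62.9 (SD, n = 49) in the other regions. On the downward side stood Zfp395, with 33.3 ± 9.48 in hippocampus and 151 ± 95.6 elsewhere and a log2 difference of -2.05 ± 0.10, and Zfp783 (1434857_at), with 38.3 ± 6.85 and 135 ± 59.5 and a difference of -1.71 ± 0.089. Zfp423, a partner of Ebf factors in the cerebellum and in fat cell precursors, had 74.3, 119.9 and 248 in hippocampus, against 130.5, 411 and 868 elsewhere. Its difference was -1.53 ± 0.070 (SE, adjusted p = 2.74e-20), although single arrays of the groups overlapped.

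In bnst the leading members were Zfp804a and Zfp423. Zfp804a (1443036_at) had 106, 221 and 298 on 13 bnst arrays, against 5.25, 87.4 and 200.0 elsewhere, a log2 difference of 1.66 ± 0.12 (SE, adjusted p = 1.66e-14). Its probe set 1457361_at gave 1.16 ± 0.12 (SE, adjusted p = 1.002e-09). The mean signal of 1457361_at was 50.6, just inside the limit, with 84.7 on the bnst arrays and 41.3 on the 48 others. Without its bnst arrays it would fall under the limit, so this probe set adds no separate support. Zfp423 had 385, 547.5 and 868 in bnst, against 74.3, 250.3 and 778 elsewhere, a difference of 1.10 ± 0.068 (SE, adjusted p = 7.78e-16). The groups overlapped for both genes, since hippocampal arrays of Zfp804a and hypothalamic and periaqueductal gray arrays of Zfp423 reached the bnst range. Against the other 3 brain regions alone the bnst differences were 1.02 ± 0.12 for Zfp804a (1443036_at) and 0.91 ± 0.071 for Zfp423. The largest differences downward in bnst were smaller, at -0.74 ± 0.11 for Zfp189, -0.67 ± 0.093 for Zfp36 and -0.63 ± 0.092 for Zfp551. That of Zfp36 came from its high pituitary level, since it averaged 57.4 in bnst, 61.4 in hippocampus, 63.6 in hypothalamus, 64.2 in periaqueductal gray and 265 in the pituitary gland. Against the other 3 brain regions it was -0.15 ± 0.096 (adjusted p = 0.349), while Zfp189 (-0.64 ± 0.11) and Zfp551 (-0.51 ± 0.095) still passed. All 5 choroid plexus markers were higher in bnst, where their summed mean signal was 5834, against 1054 in the other regions, and the part of these and of the hypothalamus markers in the member differences was not tested.

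Hypothalamus and periaqueductal gray shared 2 of their 3 leading members. Zfp618, which binds the chromatin protein Uhrf2, had 82.9, 118 and 132 in hypothalamus, against 10.4, 72.0 and 152 elsewhere (log2 difference 0.91 ± 0.082, SE, adjusted p = 1.86e-11). In periaqueductal gray it had 97.7, 124 and 152, against 10.4, 72.0 and 143 elsewhere (1.07 ± 0.082, adjusted p = 1.91e-13). Zfp618 was low in hippocampus and, in 5 of 6 strains, in the pituitary gland, where the A/J arrays at 72.0 and 61.7 lay above the other strains. Zfp711, whose human counterpart on the X chromosome is mutated in intellectual disability, was higher by 0.79 ± 0.079 in hypothalamus and by 0.88 ± 0.079 in periaqueductal gray. It averaged 154 in hypothalamus and 161 in periaqueductal gray, against 132 in bnst, 130.1 in hippocampus and 22.8 in the pituitary gland, so most of these differences came from the pituitary arrays. Against the other 3 brain regions Zfp711 differed by 0.12 ± 0.081 in hypothalamus (adjusted p = 0.321) and by 0.22 ± 0.081 in periaqueductal gray (adjusted p = 0.0327), and Zfp618 by 0.61 ± 0.085 and 0.78 ± 0.085. The third leading member was Zfp941 (1458163_at) in hypothalamus, at 0.83 ± 0.055, and Zfp521, a paralogue of Zfp423 that promotes early neural fate, in periaqueductal gray, at 0.79 ± 0.047. The differences downward were -0.76 ± 0.12 for Zfp33b, -0.54 ± 0.11 for Zfp189 and -0.48 ± 0.067 for Zfp536, a repressor of neuronal differentiation, in hypothalamus. Zfp33b averaged 40.2 in hypothalamus, against 50.4 in bnst, 51.6 in hippocampus, 47.9 in periaqueductal gray and 139.9 in the pituitary gland, and its difference from the other 3 brain regions was -0.38 ± 0.12 (adjusted p = 0.0170). In periaqueductal gray the largest differences downward were -0.82 ± 0.038 for Zfp810, -0.75 ± 0.071 for Zfp950 (1428748_at) and -0.68 ± 0.092 for Zfp783 (1456334_s_at).

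The co-repressors through which KRAB proteins act were measured for 23 of 25 listed genes, each by its brightest probe set. In the pituitary gland 18 were higher, 4 were lower and 1 did not pass, where 46.2% of all probe sets above 50 were higher and 38.6% lower. Their median log2 difference was 0.38, against 0.10 over all probe sets tested. Trim28, the scaffold that KRAB domains bind, averaged 1388 ± 149 in the pituitary gland and 1030 ± 113 in the other regions (SD, n = 12 and 49), a log2 difference of 0.43 ± 0.038. Resf1 rose by 1.43 ± 0.053, Hdac1, a histone deacetylase, by 1.28 ± 0.049, and Cbx1, an HP1 protein, by 0.87 ± 0.042. The 4 that fell were Chd3, a NuRD remodeller, at -2.06 ± 0.039, Pphln1 at -0.61 ± 0.044, Mphosph8 at -0.18 ± 0.039 and Setdb1, the histone methyltransferase of the complex, at -0.17 ± 0.042. Uhrf1 was under the floor in the other 4 regions. In periaqueductal gray 3 of the 23 were higher and 14 lower (32.9% and 30.6% of all probe sets above 50), in bnst 1 and 12 (26.4% and 31.2%), in hippocampus 3 and 11 (29.7% and 40.0%), and in hypothalamus 3 and 7 (27.7% and 23.1%). Of the 23, all differed between regions, where 93.6% of all probe sets above 50 did, and 14 between strains, where 57.2% did.

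Position in the genome was compared through the gene order of RefSeq (GRCm38.p6), by a rule chosen after member values had been seen. Of 394 protein-coding Zfp genes in that order, runs of 2 or more direct neighbours numbered 52, and the longest held 20. Members of genes with a Zfp gene next to them numbered 154 (118 genes), and members of genes with none numbered 205 (129 genes). Only genes with a Zfp symbol counted as neighbours. A member that stood alone by this rule may still lie beside a zinc finger gene of another name. In the pituitary gland 102 (66.2%) of the neighbouring members were higher and 18 (11.7%) lower, against 101 (49.3%) higher and 50 (24.4%) lower of the members that stood alone. Of all probe sets above 50, 46.2% were higher and 38.6% lower, so the share of higher members that stood alone was near that of the array. Their median log2 differences were 0.41 and 0.14. A difference of the shares was also present in members with a mean signal above 100 (69.6% of 69 neighbouring members and 46.2% of 145 others) and was smaller in those of 50 to 100 (63.5% of 85 and 56.7% of 60). After scaling to 1 median the shares were 57.1% and 38.5%, and 37.0% over all probe sets above 50. Among the members placed in this order, those that fell more than 2-fold in the pituitary gland numbered 1 with a Zfp neighbour and 11 without. Those that rose more than 2-fold there numbered 16 and 9. The split by neighbour and the 2-fold counts were not made over all probe sets above 50. Differences between strains were called for 64.3% of the neighbouring members and 60.98% of the others, against 57.2% of all probe sets above 50. The set comparison was left as counts, since probe sets of neighbouring and duplicated genes can share sequence, and 16 members carry the ending x, for probes that can match other transcripts, and 18 the ending s, for probes shared by several transcripts.

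Between strains, each member was first set against the mean of the other 5 strains. In 129S6/SvEvTac 36 members (9.97%) were higher, against 14.0% of all probe sets above 50, and 78 (21.6%) were lower, against 13.8%. In A/J 36 (9.97%) were higher, against 11.5%, and 53 (14.7%) were lower, against 11.1%. In C3H/HeJ 44 (12.2%) were higher, against 8.12%, and 19 (5.26%) were lower, against 7.83%. In C57BL/6J 76 (21.1%) were higher, against 14.7%, and 53 (14.7%) were lower, against 17.7%. Under scaling to 1 median 37 (10.2%) were higher, against 6.70%, and 89 (24.7%) lower, against 29.1%. With quantile normalization 61 were higher and 56 lower, where 13.6% and 15.9% of all probe sets above 50 were. In DBA/2J 31 (8.59%) were higher, against 9.62%, and 56 (15.5%) were lower, against 9.03%. With the arrays scaled 88 (24.4%) were higher, against 29.2%, and 28 (7.76%) lower, against 4.17%. With quantile normalization 29 were higher and 41 lower, where 8.76% and 6.72% of all probe sets above 50 were. In FVB/NJ 45 (12.5%) were higher, against 8.93%, and 24 (6.65%) were lower, against 8.06%. The median member difference of each strain lay within 0.04 of 0 on the log2 scale. Scaling the arrays turned the direction of the C57BL/6J and DBA/2J counts, and it moved the median over all probe sets above 50 to -0.11 in C57BL/6J and to 0.13 in DBA/2J. Relative to all probe sets above 50, the share of members higher was larger in C57BL/6J and smaller in DBA/2J with and without this scaling. In 129S6/SvEvTac and A/J more members were lower and in C3H/HeJ and FVB/NJ more were higher as deposited, scaled and after quantile normalization. C57BL/6J had the highest strain mean for 98 members and 129S6/SvEvTac the lowest for 98, counts that were not made over all probe sets above 50.

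A strain-private signal was counted where, in each of the 5 regions, every array of 1 strain lay on the same side of every array of the other strains. This held for 7 of the 361 members (1.94%) in 7 of 248 genes, against 580 of the 23404 other probe sets above 50 (2.48%). All 7 were lower in the private strain, where 1.59% of all probe sets above 50 were private and lower, and no member was private and higher, against 0.930%. Of the 7, 3 belonged to DBA/2J, 1 each to 129S6/SvEvTac, C3H/HeJ, C57BL/6J and FVB/NJ, and none to A/J. Among the 379 probe sets above 50 that were private and lower, DBA/2J held 82, 129S6/SvEvTac 87, C3H/HeJ 36, C57BL/6J 63, FVB/NJ 70 and A/J 41. The count is a description and has no test. It came to 7 with no floor beyond 1, to 15 when 4 of the 5 regions sufficed, and to 1, Zfp704, when a gap of 1 on the log2 scale was asked in every region. It came to 4 when only the brightest probe set of each gene was counted, which left out Zfp704, Zfp420 and Zfp142. With no limit on the mean signal it came to 9, and the added Zfp991 and Zfp874a were private and higher. A probe set high in 1 strain and low in the rest can fall under the limit. Probe sequences were not used here, so a lower level of a transcript and weaker binding to a probe that differs from the strain's sequence cannot be told apart in these signals. In 61 members no strain was on one side of the others in any region, and in 208 a strain was so in 1 region only. These counts by number of regions were not made over all probe sets above 50.

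Zfp704 in C57BL/6J was the widest of these. Probe set 1417849_at had a lowest, median and highest signal of -43.0, -13.3 and 2.74 on the 10 C57BL/6J arrays, against 49.8, 115 and 200.0 on the 51 arrays of the other strains. No C57BL/6J array came near the others, and all 10 lay under the floor, so the log2 difference is set by the floor, at -3.12 with a floor of 12.78, -2.34 with one of 21.91 and -6.65 with one of 1. Probe set 1417848_at of the same gene averaged 255 in C57BL/6J, where its log2 difference was -0.17 ± 0.036 (SE, adjusted p = 0.000615). Both probe sets of Zfp704 passed the test against each of the other strains on the lower side in C57BL/6J, by amounts that differ widely.

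DBA/2J had 3 private members. Zfp142 (1459048_s_at), whose human counterpart is mutated in a neurodevelopmental disorder, had 24.7, 34.2 and 83.7 in DBA/2J, against 84.5, 120.3 and 226 elsewhere, so that the log2 difference was -1.72 ± 0.093 (SE, adjusted p = 8.43e-17). Its probe sets 1425356_at (-0.09 ± 0.043, adjusted p = 0.170) and 1441767_at (-0.04 ± 0.16, adjusted p = 0.889) did not pass the test in DBA/2J. Zfp277, which has been tied to the Polycomb protein Bmi1, had 53.9, 76.5 and 128 in DBA/2J, against 104, 145 and 276 elsewhere, a difference of -0.99 ± 0.051 (SE, adjusted p = 1.97e-17). Its dim probe set 1443362_at, with a mean signal of 57.4, gave -0.22 ± 0.12 (adjusted p = 0.233). Zfp975 (1439295_x_at), in a run with Zfp141, Zfp977 and Zfp976, had 16.9, 29.98 and 62.6 in DBA/2J, against 49.0, 75.7 and 149 elsewhere, a difference of -1.28 ± 0.11 (SE, adjusted p = 1.52e-11). Over all regions these DBA/2J ranges of Zfp277 and Zfp975 overlapped the other strains, and they were apart only within each region.

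The other 3 private members lay in 3 strains. Zfp939 had 16.3, 42.2 and 56.96 on the 11 C3H/HeJ arrays, against 76.6, 128 and 310 on the 50 others, a log2 difference of -1.86 ± 0.11 (SE, adjusted p = 1.12e-15), and the groups did not overlap even over all regions. Zfp420 (1437212_at), whose human counterpart restrains p53, had 36.9, 53.1 and 83.1 in 129S6/SvEvTac, against 61.1, 113 and 169 elsewhere, a difference of -1.05 ± 0.10 (SE, adjusted p = 7.00e-10). Probe set 1447809_x_at of Zfp420 did not follow it, with -0.08 ± 0.086 in 129S6/SvEvTac (adjusted p = 0.590) and -0.60 ± 0.086 in DBA/2J (adjusted p = 2.27e-06). Zfp267 (1455757_at) had 98.8, 130.4 and 154 in FVB/NJ, against 145, 202.9 and 278 elsewhere, a difference of -0.68 ± 0.058 (SE, adjusted p = 2.68e-11). Its probe set 1437557_at was lower in FVB/NJ as well, by -0.34 ± 0.044 on the log2 scale. The private signals of Zfp420 and Zfp267 were lost when each array was scaled to 1 median.

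**Figure D4:**
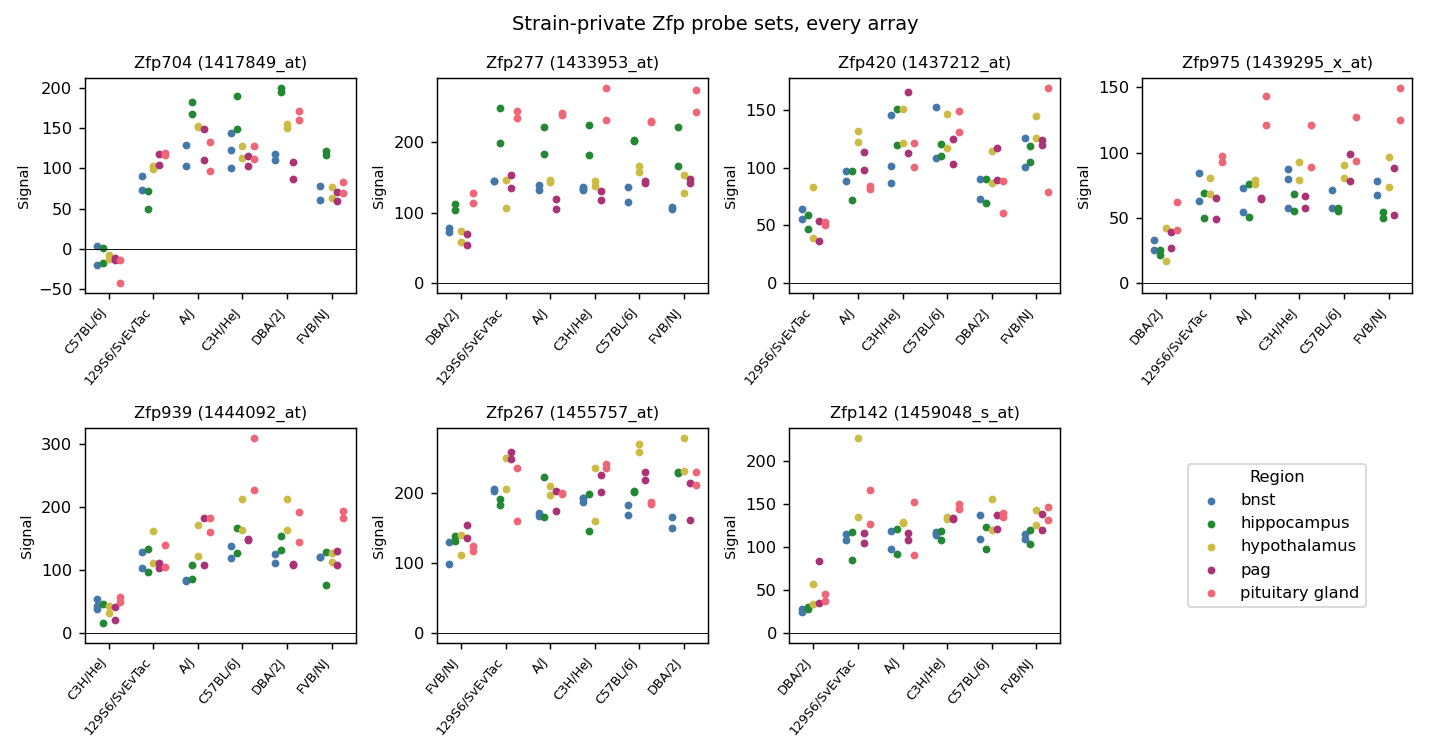
Signal on every array (linear axis) for the 7 strain-private members, with the private strain on the left of each panel and regions in colour. All C57BL/6J arrays of Zfp704 lie at or under 2.74, and in the other panels the private strain lies under the other strains within each region.

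In a tested form, a member stood apart in a strain when all 5 of its differences from the other strains passed and had the same sign. This held for 43 members (11.9%), against 2959 of the 23404 other probe sets above 50 (12.6%), and the 7 private members were among them. Of the members, 36 stood apart on the lower side, against 8.68% of all probe sets above 50, and 8 on the higher side, against 4.51%, with Zfp386 (1421139_a_at) counted on both sides, lower in 129S6/SvEvTac and higher in C57BL/6J. 129S6/SvEvTac held 14 of the 36 lower calls (586 of 2062 over all probe sets above 50), DBA/2J 7 (268), A/J 5 (197), C57BL/6J 5 (625), FVB/NJ 4 (244) and C3H/HeJ 1 (142). Both member probe sets of Zfp236 and both of Zfp386 stood apart on the lower side in 129S6/SvEvTac, and so did 2 of the 4 of Zfp451. The same held for both of Zfp263 in A/J, both of Zfp267 in FVB/NJ and both of Zfp704 in C57BL/6J, while those of Zfp420 stood apart on the lower side in different strains, 129S6/SvEvTac and DBA/2J.

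Several further members had wide strain differences shared by more than 1 strain. Zfp871 (1435163_at) had 32.3, 57.8 and 119 in A/J, against 47.4, 247 and 421 in the other strains (log2 difference -1.72 ± 0.078, SE, adjusted p = 8.03e-19). It was also low in C3H/HeJ, at 47.4, 83.2 and 134 (-1.25 ± 0.076, adjusted p = 3.06e-15). In C57BL/6J the same probe set was higher by 1.05 ± 0.078. The other member probe sets of Zfp871, 1433784_at and 1453140_at, are not described here. Zfp52, in a run with Zfp51, Zfp53 and Zfp54, split the strains into 3 low and 3 high. It averaged 25.7 in A/J, 26.2 in DBA/2J and 32.9 in 129S6/SvEvTac, and 115 in C57BL/6J, 98.6 in C3H/HeJ and 90.4 in FVB/NJ. Its log2 differences from the mean of the other strains were -1.22 ± 0.15 in A/J, 1.35 ± 0.15 in C57BL/6J and 0.995 ± 0.15 in C3H/HeJ. Zfp949 was higher in DBA/2J and FVB/NJ than in the other strains. Probe set 1456518_at of Zfp949 had 170.3, 229 and 363 in DBA/2J, against 53.6, 101 and 423 in the rest (1.14 ± 0.068, SE, adjusted p = 1.32e-15), and 184, 231 and 423 in FVB/NJ, against 53.6, 101 and 363 in the rest (1.17 ± 0.068, adjusted p = 7.76e-16). Probe set 1458491_at gave 1.19 ± 0.075 in FVB/NJ and read 621 and 582 on the FVB/NJ pituitary arrays and 499 and 472 on those of DBA/2J, against no more than 155 in the other 4 strains. Zfp605 had 96.0, 121 and 149 in FVB/NJ, against 36.3, 49.4 and 120 in the rest (1.12 ± 0.070, adjusted p = 5.90e-15), and the C3H/HeJ arrays, between 82.7 and 120, were the next highest. In 129S6/SvEvTac the leading differences were those of Zfp236 (1455407_at, -1.20 ± 0.17), Zfp398 (1458003_at, -1.19 ± 0.085) and Zfp420 (1437212_at). The other member probe sets of Zfp398 (1439979_at, 1443105_at, 1447959_at and 1457688_at) are not described here.

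Of 78 genes with more than 1 member probe set, all probe sets differed between strains in 34, some in 35 and none in 9. For regions, all differed in 61, some in 16 and none in 1. These counts by gene were not made over the other genes with more than 1 probe set above 50, so they are not a trait of Zfp genes.

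Strain differences that varied with region were seldom called. An interaction was called for 33 members (9.14%), against 16.6% of all probe sets above 50. With each array scaled to 1 median it was called for 13 members. Leaving out a single array gave between 21, without DBA/2J periaqueductal gray replicate 1, and 52, without 129S6/SvEvTac hypothalamus replicate 1. Under these alternatives the interaction was not counted over all probe sets above 50. Zfp704 (1417849_at) had the smallest adjusted p, 0.00100, with signals at the floor in C57BL/6J in all regions and hippocampal arrays between 49.8 and 72.0 in 129S6/SvEvTac but at 195 and 200.0 in DBA/2J. Zfp644 (1436985_at), which works with the histone methyltransferases G9a and GLP, followed at 0.00149. Its hippocampal arrays read 193 and 222 in 129S6/SvEvTac and between 302 and 487 in the other strains, while its 129S6/SvEvTac arrays in periaqueductal gray, at 496 and 496.5, were among the highest. Zfp868 (adjusted p = 0.00559) read 371 and 379 in FVB/NJ pituitary gland and 318 and 303 in that of 129S6/SvEvTac, against 180 to 241 in the other strains, and its values outside the pituitary gland lay between 122 and 208. Zfp941 (1439850_at, adjusted p = 0.00339) was low in the hippocampus of every strain, with arrays between 62.6 and 106, and varied between strains in the other regions. Zfp369 (adjusted p = 0.00470), a relative of the p75 neurotrophin receptor interacting factor, read 262 and 258 in A/J pituitary gland and 173 and 155 in A/J periaqueductal gray. With each array scaled to 1 median the adjusted p was 0.147 for Zfp868 and 0.0510 for Zfp941.

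**Figure D5:**
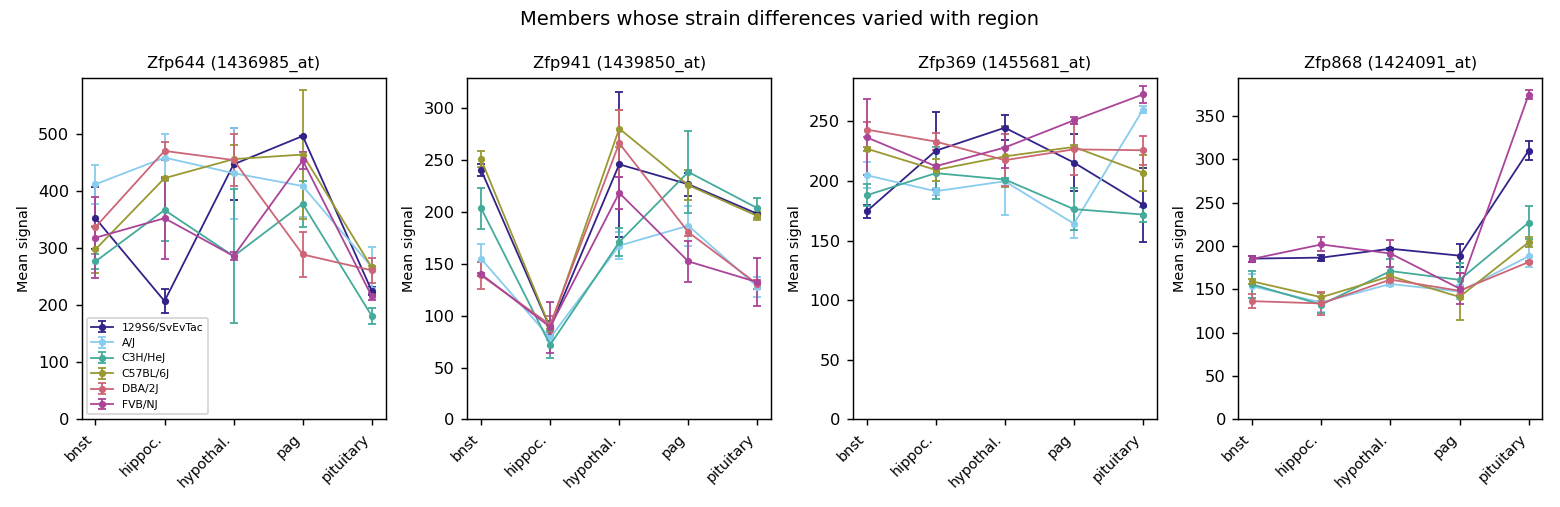
Mean signal by region for the 6 strains (lines) in 4 members with an interaction of strain and region, with bars for the SD of 2 arrays (3 for C3H/HeJ bnst). In Zfp868 the FVB/NJ and 129S6/SvEvTac lines separate from the others in the pituitary gland, with arrays of 371 and 379 in FVB/NJ.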

How the data were processed

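RNA of 5 regions from 6 strains was hybridised to 61 Affymetrix Mouse Genome 430 2.0 arrays. The deposited values are probe set intensities that the authors computed with TeraGenomics, background-corrected and globally scaled on a linear scale, with some below 0; version, scaling target and detection calls are not given in the sources used here. Groups were read from the labels, and p-values measure the spread between arrays, some of them of pooled mice. Values under 12.78, the 20th percentile, were raised to it and logged (log2). limma 3.58.1 in R 4.3.3 was fitted with 30 group means and a trend, and p-values were adjusted by Benjamini-Hochberg over 44065 probe sets, leaving out 972 at the floor on every array. Fits were tested on simulated data. Counts and the regression ran in Python 3.11.15. Named genes were the private members, the 3 members with the largest consistent difference per region and direction and per strain, the 5 with the smallest interaction p, the 5 brightest and those nearest the limit. The members and gene lists were chosen with earlier results of these data known. Alternatives changed the floor, scaling, trend, signal limit, probe sets per gene, replicate block and the regions set against each brain region, and left out each array. A shared replicate number was not read as a pairing. The 120 correlations between same-numbered arrays of a strain, taken on deviations from group means, lay between -0.47 and 0.53 with a median of 0.0032, and 28 exceeded 0.1. In groups of 2 arrays these correlations come in equal pairs, and they cannot show whether regions shared mice.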

Additional observations from a re-analysis of the deposited data

Results flagged for a closer look

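An interaction of strain and region, meaning strain differences that were not the same in all regions, was called by limma for 33 members (9.14%). Over all probe sets above 50 the share was 16.6%. Among the members named in the text the adjusted p of the interaction was 0.00100 for Zfp704 (1417849_at), 0.00149 for Zfp644, 0.00339 for Zfp941 (1439850_at), 0.00470 for Zfp369 and 0.00559 for Zfp868. It was 0.00903 for Zfp871 (1435163_at), 0.00983 for Zfp423, 0.0129 for Zfp618, 0.0292 for Zfp365 (1435615_at) and 0.0301 for Zfp106 (1425332_at). With each array scaled to 1 median signal Zfp868 (0.147), Zfp365 (0.0991), Zfp106 (0.0826) and Zfp941 (0.0510) no longer passed. Leaving out single arrays ended the call of Zfp365 in 5 of 61 cases and that of Zfp106 in 2 of 61, without 129S6/SvEvTac pituitary gland replicate 2 and without C57BL/6J pituitary gland replicate 1. The calls of the other 8 passed in each of the 61 cases. Groups held 2 or 3 arrays, so single arrays could not be checked for lying apart from their group.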

How the results depend on the processing

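Shares are percentages of members. With each array scaled to 1 median the interaction was called for 3.60%, bnst lower for 13.9%, hypothalamus lower for 11.4%, periaqueductal gray higher for 11.9%, A/J higher for 6.37%, C57BL/6J higher for 10.2% and lower for 24.7%, and DBA/2J higher for 24.4% and lower for 7.76%. The cause was not tested. With no limit on the mean signal 15.5% were higher in hippocampus, over 607 probe sets tested. Against the other 3 brain regions, a setting added after the data had been seen, 10.2% were lower in bnst, 10.5% in hypothalamus and 23.8% in periaqueductal gray, since the pituitary gland was left out of the mean. Private signals made up 4.16% when 4 regions sufficed and 0.277% when a gap of 1 log2 unit was asked. Leaving out 1 array gave 5.82% to 14.4% for the interaction, and no other count moved by over 1.5 times. With the replicate number as a block the interaction was called for 9.70% and a strain difference for 60.7%, and the block moved no count by over 1.5 times. Of 3374 values of 50 named differences under the alternatives, 0 changed direction and 2 lost the call, those of Zfp711 in hypothalamus (0.12) and Zfp36 in bnst (-0.15) against the other 3 brain regions. With 1 probe set per gene the private count was 4 of 248 genes in place of 7 of 361 members. Quantile normalization, other floors and no trend kept each count within 1.5 times. Signals near the floor limit the dim members, and 2 arrays per group limit single groups.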

Other observations

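Some genes outside the named members are given here, picked after their values had been seen. Zfp110, the neurotrophin receptor interacting factor, was higher in the pituitary gland on all 3 member probe sets, with log2 differences of 1.75 ± 0.093, 1.72 ± 0.073 and 1.60 ± 0.14 (SE). One of them, 1450998_at, had a mean signal of 51.1, just inside the limit, and passed it only through its high pituitary arrays. That probe set therefore adds no separate support. Zfp568, a KRAB gene needed in early mouse development and measured by 1 member probe set, was higher there by 1.42 ± 0.12. Zfp809, which binds the primer binding site of a murine leukaemia virus and silences it, was higher by 0.57 ± 0.048 on its 1 member probe set. Zfp292 was higher in the pituitary gland on 4 of 4 probe sets, between 0.28 ± 0.084 and 0.79 ± 0.049. Zfp148 was higher in hippocampus on 6 of 6 probe sets, between 0.31 ± 0.044 and 0.86 ± 0.061, while in the pituitary gland 1436217_at was lower by -0.84 ± 0.061 and the other 5 lay between 0.01 and 0.16. The 5 member probe sets of Zfp318 disagreed in the pituitary gland, at -0.88 ± 0.049, -0.87 ± 0.047, -0.46 ± 0.067, -0.09 ± 0.040 and 0.16 ± 0.052, and each passed the test.

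Below the limit on the mean signal, 2 further Zfp probe sets were private to a strain, both on the higher side. Zfp991 (1424784_at) had a lowest, median and highest signal of 58.9, 77.0 and 104 in FVB/NJ, against 5.66, 21.8 and 99.2 elsewhere, so that the log2 difference was 1.58 ± 0.12 (SE, limma adjusted p = 2.08e-12). Zfp874a (1434171_at) had 82.8, 116 and 131 in C57BL/6J, against 10.2, 24.7 and 59.8, a difference of 2.14 ± 0.19 (SE, adjusted p = 3.86e-11). The C57BL/6J arrays of Zfp874a lay above all others over all regions, and the FVB/NJ arrays of Zfp991 did so only within each region.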
